A study of Homo sapiens with 4 samples.

Results

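Genes that mark glioma cells and neural stem cells were followed in U87 cells with and without carnosine. The set holds 10 genes taken by symbol from a table of 58219 genes: NES, VIM, CHI3L1, CD44, SOX2, SOX9, GFAP, S100B, OLIG2 and PROM1. U87 is an established human glioblastoma line, obtained from ATCC per the labels, and carnosine is a natural dipeptide of beta-alanine and histidine. The control group had 2 libraries from cells given fresh medium with 0 mM carnosine for 24 h. The carnosine group had 2 libraries from cells given 50 mM carnosine for 24 h. In both groups the cells were first grown for 24 h before treatment. Both groups carried no other agent and shared the same medium, with 4.5 g/L glucose and 10% serum. The cells are a single line grown as a plain culture, with no other cell type in the labels.

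Gliomas are described by markers of several lineages. NES, VIM and GFAP encode intermediate filament proteins of neural progenitors, of mesenchymal and migrating cells, and of astrocytes. SOX2, SOX9 and OLIG2 encode transcription factors of neural stem cells, of glial specification and of the oligodendrocyte lineage. CD44, the hyaluronan receptor, and CHI3L1, a secreted protein of the chitinase family also called YKL-40, are used as markers of the mesenchymal state of glioblastoma. S100B is a calcium-binding protein of astrocytes, and PROM1 encodes CD133, a surface protein used to enrich glioma stem cells.

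Libraries held between 51632970 and 71766267 gene counts. Of 16340 genes tested, 1358 (8.31%) passed edgeR's quasi-likelihood test with a Benjamini-Hochberg adjusted p below 0.05. Of them 645 (3.95% of those tested) were higher with carnosine, and 713 (4.36%) were lower. CDKN2A, CDKN2B and MTAP, neighbours in a region known to be deleted in U87, had 0 counts in every library. The labels do not say that replicates came from separate cultures, so p-values describe only how these samples vary, and that variation may be technical. In these bulk samples, fewer cells of a type and less RNA per cell cannot be told apart.

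Of the 10 markers, 7 were counted highly enough to be tested, and CHI3L1 was the one that passed, higher with carnosine. It went from 117 ± 2.03 to 172 ± 4.57 CPM (counts scaled to library size; SD, n = 2 each), 1.47-fold. The other 6 tested markers, VIM, NES, CD44, SOX9, OLIG2 and GFAP, did not pass, and 0 passed in the lower direction, where 2 had an unadjusted p under 0.05 and DESeq2 called 2. SOX2, S100B and PROM1 had at most 4 counts in a library and were not tested. The share of all genes tested that passed is the 8.31% above, and 1 of 7 members is too few to be read against it. The libraries of the groups did not overlap for 5 of the 7, 3 higher and 2 lower with carnosine, where 56.5% of all genes tested had such groups. The median log2 fold change of the 7 was 0.25, where that of all genes tested was 0.0009 (quartiles -0.247 and 0.270). Of the 7, 4 lay above 0 and 3 below. GFAP, with only 4 to 16 counts in a library, was among those above 0. The median of 7 genes depends on it, and no shared direction is read from it.

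The markers differed widely in level, and genes were compared with each other on CPM per kilobase of merged exon. VIM had 1402 ± 51.5 in controls (SD, n = 2), which placed it above 99.9% of all genes tested. CD44 followed with 119 ± 12.3 and CHI3L1 with 34.4 ± 0.59. The 4 libraries of each of these genes lay wholly above those of the next gene in the order. SOX9 had 8.48 ± 1.65 and NES 6.73 ± 1.69 on this scale, and their libraries overlapped, so their order is not set by these data. OLIG2 stood lower at 1.14 ± 0.12. GFAP was at 0.012 ± 0.009, and its 4 libraries overlapped those of PROM1. Of the astrocyte and stem cell markers, GFAP, PROM1, SOX2 and S100B thus lay at or near the limit of counting in both groups. The glial factor SOX9 and the progenitor filament NES did not, standing above 69.6% and 64.4% of all genes tested in controls. VIM, CD44 and CHI3L1 were abundant in both groups.

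**Figure D1:**
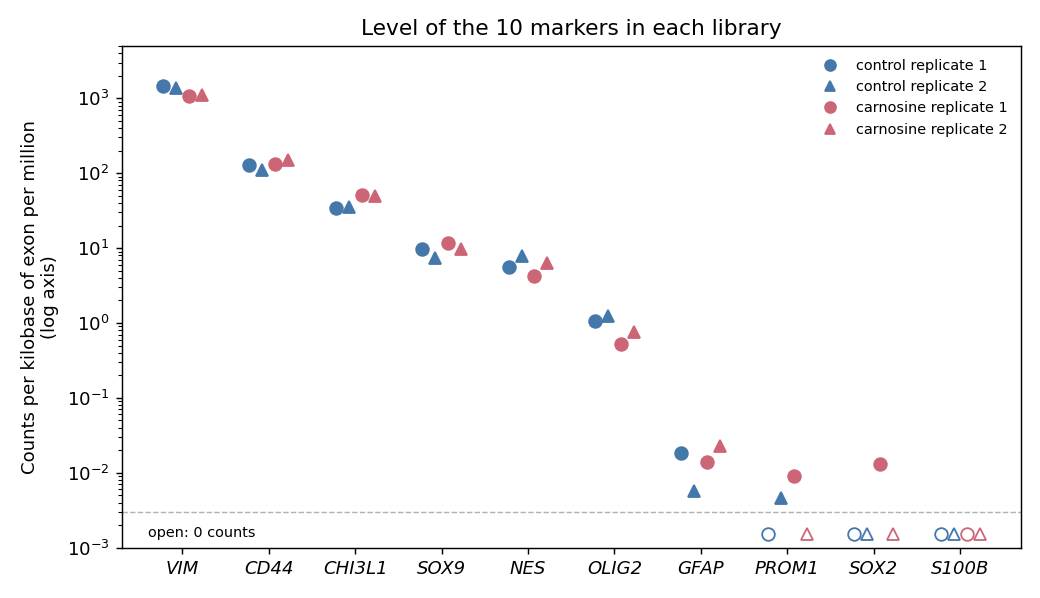
Level of each marker in each of the 4 libraries, as CPM per kilobase of merged exon on a log axis, in order of the control mean; open symbols at the bottom are libraries with 0 counts. VIM lies near 1402 in controls, SOX9 and NES overlap, and GFAP, PROM1, SOX2 and S100B lie at the bottom.

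CHI3L1 (ENSG00000133048.12) lies on chromosome 1, 203178931 to 203186749, minus strand (GRCh38). Control replicates 1 and 2 had 116 and 119 CPM, and carnosine replicates 1 and 2 had 175 and 169 CPM. Both carnosine libraries lay above both controls, and the gap between the groups was many times the spread within either. Groups lay apart in that direction for 27.8% of all genes tested. The fitted log2 fold change was 0.55 ± 0.10 (SE), with an adjusted p of 0.0243 by edgeR and a 95% interval from 0.32 to 0.79. Without control replicate 1 the log2 fold change was 0.53 with an adjusted p of 0.129, and without control replicate 2 it was 0.57 with an adjusted p of 0.119, so the call ended with either control left out while the value stayed.

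The start regions of 3 markers that stood in different states are shown for context: CHI3L1, which rose, CD44, which was abundant and did not pass, and SOX2, which was almost uncounted. The windows run from 250 bases before to 50 bases after the RefSeq start (GRCh38.p14), 5′ to 3′ on the gene's strand, at chr1:203186655-203186954 (minus), chr11:35138921-35139220 (plus) and chr3:181711675-181711974 (plus). Capitals mark matches to any of 6 motifs, searched on both strands.
CHI3L1: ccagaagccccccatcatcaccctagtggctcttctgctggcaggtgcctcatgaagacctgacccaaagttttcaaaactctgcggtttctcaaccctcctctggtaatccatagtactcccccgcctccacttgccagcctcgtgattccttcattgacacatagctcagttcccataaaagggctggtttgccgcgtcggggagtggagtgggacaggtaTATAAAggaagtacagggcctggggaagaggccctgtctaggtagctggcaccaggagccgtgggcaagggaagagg
CD44: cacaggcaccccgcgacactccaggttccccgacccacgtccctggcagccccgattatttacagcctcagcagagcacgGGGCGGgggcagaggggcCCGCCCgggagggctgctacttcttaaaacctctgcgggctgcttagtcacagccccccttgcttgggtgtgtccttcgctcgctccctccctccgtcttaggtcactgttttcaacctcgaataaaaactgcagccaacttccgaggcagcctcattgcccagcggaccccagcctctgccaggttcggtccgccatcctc
SOX2: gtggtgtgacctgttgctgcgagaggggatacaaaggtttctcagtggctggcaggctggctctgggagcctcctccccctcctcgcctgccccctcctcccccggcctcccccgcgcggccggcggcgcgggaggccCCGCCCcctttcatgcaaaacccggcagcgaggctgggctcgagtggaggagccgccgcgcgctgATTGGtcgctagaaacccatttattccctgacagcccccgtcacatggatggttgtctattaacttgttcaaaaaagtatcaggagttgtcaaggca
The motifs were the TATA box (TATAAA), the GC box (GGGCGG), the CCAAT box (CCAAT), the AP-1 motif (TGANTCA), the STAT motif (TTCNNNGAA) and the E-box CACGTG, none of which overlapped another in these windows. CHI3L1 held a TATA box whose first base lies at -27 from the start, a motif present in 11.5% of all 35116 windows of this length. CD44 held a GC box on each strand, at -170 and -152, and SOX2 held a GC box at -112 and a CCAAT box at -47, both on the opposite strand. GC boxes are in 45.0% and CCAAT boxes in 34.6% of all windows. The AP-1 motif, the STAT motif and the E-box, in 7.71%, 7.66% and 7.26% of all windows, were not in these 3 windows. A match describes letters and is not a bound site.

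CD44 (ENSG00000026508.17, chromosome 11, 35138870 to 35232402, plus strand) encodes the receptor through which cells bind hyaluronan. Its libraries read 1281 and 1107 CPM in controls and 1317 and 1522 CPM with carnosine. The groups did not overlap, but the highest control and the lowest carnosine library were close together, and each group's spread (SD 123 and 145 CPM) was a large part of the difference. The log2 fold change was 0.25 ± 0.14 (SE; adjusted p = 0.302), with a 95% interval from -0.08 to 0.58. It was 0.14 with replicate 2 of either group left out, and 0.35 with replicate 1 of either group left out. The counts are per gene, so splice forms of CD44 were not told apart.

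VIM (ENSG00000026025.15, chromosome 10, 17228259 to 17237593, plus strand) took from 0.549% to 0.735% of a library's counts. Controls had 7420 and 7045 CPM, and carnosine libraries had 5583 and 5629 CPM. Both carnosine libraries lay below both controls, as they did for 28.8% of all genes tested. The log2 fold change was -0.37 ± 0.14 (SE; 95% interval -0.69 to -0.05), and it did not pass (unadjusted p = 0.0305, adjusted p = 0.139, edgeR). DESeq2 gave VIM an adjusted p of 0.0146 at a log2 fold change of -0.36. Exons of VIM-AS1 and other genes of the opposite strand lie over 24.4% of VIM's exonic bases, and although the library kit marked strand, the sources do not say whether the counting used it. VIM-AS1 itself had 415 to 552 counts in a library against at least 283462 for VIM.

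NES (ENSG00000132688.10, chromosome 1, 156668763 to 156677397, minus strand), the progenitor filament nestin, had 30.7 and 44.0 CPM in controls and 23.7 and 35.6 CPM with carnosine. The groups overlapped, and the spread within each (SD 9.39 and 8.42 CPM) exceeded the difference of their means. The log2 fold change was -0.33 ± 0.23 (SE; adjusted p = 0.404), with a 95% interval from -0.88 to 0.21. It was -0.06 without control replicate 2 and -0.07 without carnosine replicate 1, against -0.58 without control replicate 1 and -0.66 without carnosine replicate 2. Replicate 2 was higher than replicate 1 in both groups. With the replicate number as a block in edgeR it was -0.34 ± 0.09 (SE; adjusted p = 0.000435), but no label sets such a pairing.

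GFAP (ENSG00000131095.12, chromosome 17, 44903161 to 44916937, minus strand), the defining filament of astrocytes, had 16 and 4 counts in controls and 10 and 14 with carnosine. These counts overlapped between groups, and the 95% interval of the log2 fold change, from -1.16 to 2.25, spanned both directions (0.55 ± 0.72 SE, adjusted p = 0.677). Without control replicate 2 the log2 fold change was -0.03. Exons of the opposite strand lie over 18.4% of GFAP's exonic bases. Genes within 500000 bases of GFAP were counted, 11 of them with a mean of at least 1000 counts.

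SOX9 (ENSG00000125398.5, chromosome 17, 72121020 to 72126420, plus strand), the factor of glial specification, had 37.9 and 28.8 CPM in controls and 45.8 and 38.2 CPM with carnosine. The groups touched without overlapping, the lower carnosine library standing just above the higher control. The log2 fold change was 0.33 ± 0.16 (SE; adjusted p = 0.233), with a 95% interval from -0.04 to 0.71. It ranged from 0.14 without control replicate 2 to 0.54 without control replicate 1.

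OLIG2 (ENSG00000205927.4, chromosome 21, 33025845 to 33029196, plus strand), the factor of the oligodendrocyte lineage, had the largest fitted difference among the 7 tested members. Controls had 3.56 and 4.11 CPM, from 253 and 241 counts, and carnosine libraries had 1.75 and 2.50 CPM, from 105 and 126 counts. Both carnosine libraries lay below both controls. The log2 fold change was -0.85 ± 0.26 (SE; 95% interval -1.46 to -0.25), and it did not pass (unadjusted p = 0.0125, adjusted p = 0.0858, edgeR). DESeq2 gave OLIG2 an adjusted p of 0.0474. Without carnosine replicate 2 it was -1.14 with an adjusted p of 0.0414. OLIG1, a related factor encoded beside OLIG2, had 0 counts in every library.

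**Figure D2:**
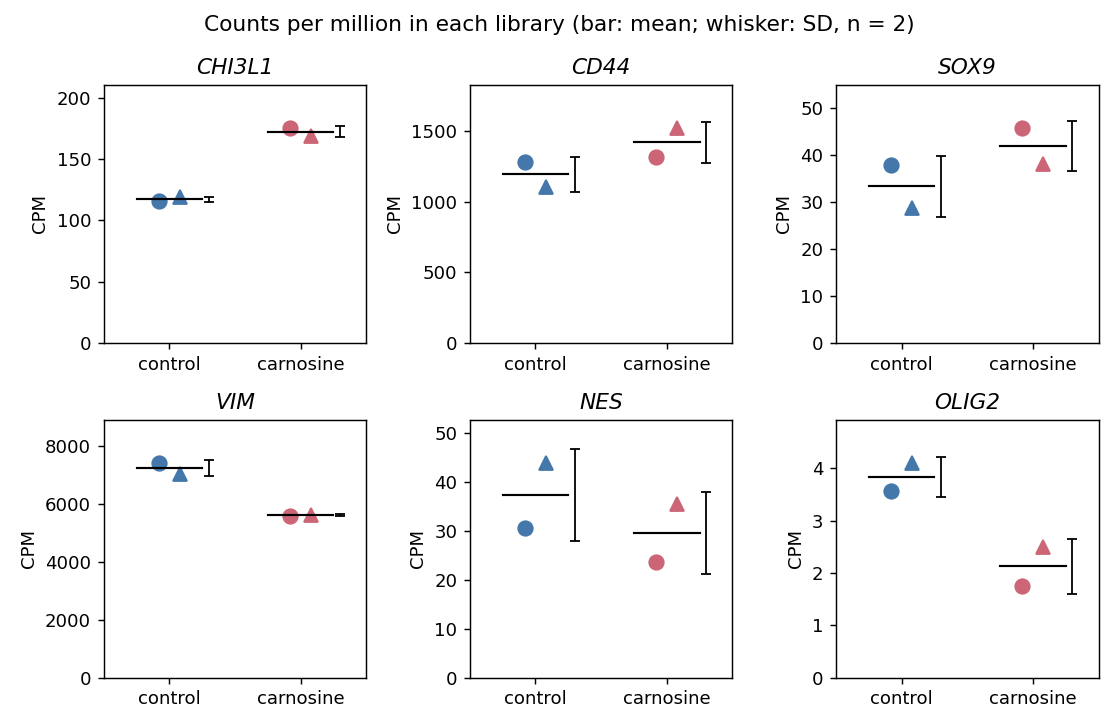
CPM of 6 markers in each library on axes that start at 0, with circles for replicate 1, triangles for replicate 2, a bar at each group's mean and a whisker of 1 SD (n = 2). CHI3L1 libraries stand apart at 116 and 119 against 175 and 169 CPM, VIM and OLIG2 are lower with carnosine, and NES overlaps.

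SOX2 (ENSG00000181449.3, chromosome 3, 181711924 to 181714436, plus strand) had 2 counts in carnosine replicate 1 and 0 in the other libraries. PROM1 (ENSG00000007062.11, chromosome 4, 15963076 to 16084378, minus strand) had 2 counts in control replicate 2, 4 in carnosine replicate 1 and 0 elsewhere. S100B (ENSG00000160307.9, chromosome 21, 46598962 to 46605208, minus strand) had 0 counts in all 4 libraries. A count of 0 allows a level of up to 3 counts, which is 0.0422 and 0.0511 CPM in the controls and 0.0499 and 0.0596 CPM in the carnosine libraries, for counting error only. For SOX2, PROM1 and S100B neither group rose clear of that limit in both of its libraries, and no fold is given. PROM1 in carnosine replicate 1 stood above it, at 0.0665 CPM against 0.0499 CPM. Within 500000 bases of S100B 6 genes had a mean of at least 1000 counts, and within that distance of PROM1 3 did. Of 16 genes that near to SOX2, 0 had a mean of at least 10 counts, and SOX2-OT, the noncoding RNA whose gene contains SOX2, had 3 counts in control replicate 2, 2 in carnosine replicate 2 and 0 elsewhere.

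**Figure D3:**
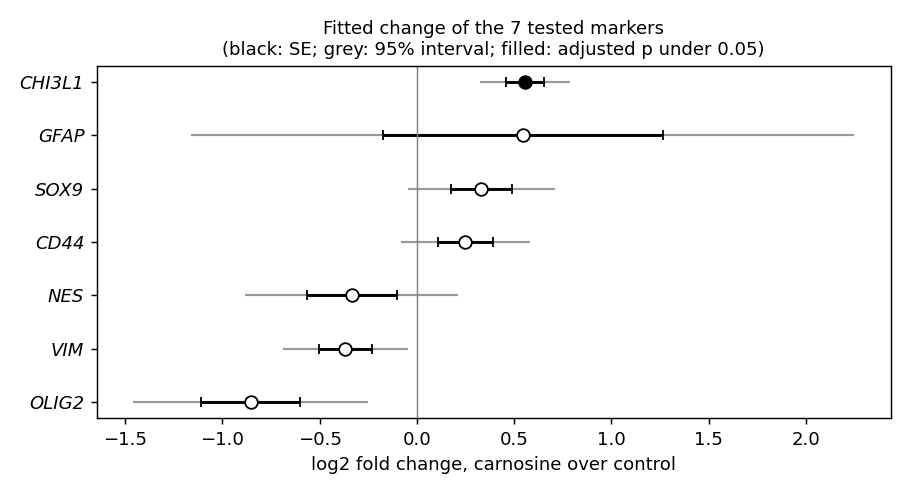
Fitted log2 fold change of the 7 tested markers, carnosine over control, with the SE in black and the 95% interval in grey; a filled point passed the test. CHI3L1 at 0.55 is filled, and the intervals of VIM and OLIG2 lie below 0 although their adjusted p of 0.139 and 0.0858 did not pass.

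Other genes of the same states and families were read from 15 lists, with 197 distinct genes of which 110 were tested. Of these 16 rose and 5 fell, where 3.95% of all genes tested rose and 4.36% fell. The lists were chosen with earlier results known, and most hold too few tested genes for a count to be read against those shares. Of 21 tested genes of the mesenchymal glioma state, 3 rose, 1 fell and 17 did not pass, with a median log2 fold change of 0.06. STAT3, a transcription factor of cytokine signalling, rose from 182 and 154 to 258 and 285 CPM (log2 fold change 0.69 ± 0.12 SE, adjusted p = 0.0261). BHLHE40, a basic helix-loop-helix repressor, rose by 0.70 ± 0.13. The AP-1 subunits moved in opposite directions, with FOSL2 higher by 0.56 ± 0.12 and FOSL1 lower, from 486 and 379 to 283 and 241 CPM (log2 fold change -0.72 ± 0.15). The calls of FOSL2 and BHLHE40 ended without control replicate 1 (adjusted p = 0.0987 and 0.0679) or 2 (0.261 and 0.0826), that of STAT3 without control replicate 2 (0.141), and that of FOSL1 without control replicate 1 (0.152) and with total counts only (0.0526).

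The lineage lists were mostly uncounted or did not pass. Of 17 proneural and oligodendrocyte progenitor genes 5 were tested. PDGFRA, a growth factor receptor of progenitors, rose from 7.20 and 11.3 to 18.2 and 38.4 CPM (log2 fold change 1.62 ± 0.36 SE, adjusted p = 0.0425). It was 0.98 without carnosine replicate 2, the library that was highest, and limma-voom gave it an adjusted p of 0.0557. CSPG4, the NG2 proteoglycan of the same progenitors, fell from 57.1 ± 7.32 to 32.5 ± 5.27 CPM (SD, n = 2 each; log2 fold change -0.81 ± 0.15), a call that ended without control replicate 1 (adjusted p = 0.0568). DLL3, SOX11, NKX2-2 and SOX8 had 0 counts in every library, as did OLIG1.

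Of 11 tested astrocyte and classical glioma genes 1 rose. This was SLC1A3, a glutamate transporter of astrocytes, from 70.2 and 85.0 to 137 and 188 CPM (log2 fold change 1.07 ± 0.17 SE, adjusted p = 0.0203). The water channel AQP4 and the fatty acid binding protein FABP7 of that list had 0 counts. Across the 14 tested stem cell and self-renewal genes the median change was 0.002 on the log2 scale, with genes in both directions around it. EZH2 (log2 fold change -0.48 ± 0.12 SE, adjusted p = 0.0597) and ITGA6 (-0.38 ± 0.11, adjusted p = 0.0756) were lower. HES1 was higher, from 7 and 3 counts to 20 and 20 (2.22 ± 0.61, adjusted p = 0.0695). None of these passed the edgeR test, and all were named after their values were seen. MSI1, NANOG, POU5F1, SALL2, NR2E1 and SOX1 had 0 counts in every library.

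Of the families around single members, the list of other intermediate filament genes, which counts the linker PLEC among them, held 10 tested and 0 that passed with edgeR. In that list 2 had an unadjusted p under 0.05, the lamin LMNB1 (log2 fold change -0.41 ± 0.13, adjusted p = 0.0959) and the keratin KRT8 (-0.48 ± 0.15, adjusted p = 0.0975), both named after their values were seen. DESeq2 and limma-voom also called 0, and 1 was called lower with no filter on low counts. The log2 fold change of the lamin LMNA was 0.21 ± 0.13 (adjusted p = 0.357) and that of the linker PLEC 0.12 ± 0.26 (adjusted p = 0.819). The PLEC value was -0.18 without control replicate 2. Of 18 tested genes of CD44 and hyaluronan handling, 2 rose and 1 fell. CEMIP, which takes part in hyaluronan breakdown, rose from 55.6 and 33.9 to 228 and 200 CPM, 4.77-fold (log2 fold change 2.25 ± 0.23, adjusted p = 0.00939). ADAM10, a protease that can shed CD44, rose by 0.56 ± 0.10 (adjusted p = 0.0281), and its call ended without control replicate 1 (0.140) or 2 (0.132). HMMR, a hyaluronan-binding protein of the mitotic spindle, fell by 0.76 ± 0.13 (adjusted p = 0.0214).

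Other SOX genes were mostly uncounted, with 5 of 17 tested. SOX5 rose from 7.89 ± 2.41 to 17.0 ± 1.47 CPM (SD, n = 2 each; log2 fold change 1.10 ± 0.21, adjusted p = 0.0313), and SOX15 rose by 1.18 ± 0.27 (adjusted p = 0.0443). The call of SOX5 ended without control replicate 2 (adjusted p = 0.0530), and that of SOX15 without control replicate 2 (0.155) or carnosine replicate 1 (0.0901) and with total counts only (0.0550). In the list of other S100 genes 9 were tested and 2 rose. That list also holds S100PBP, which was tested, and AGER, which was not, and neither is an S100 gene. S100A4 rose from 7.74 and 4.76 to 19.8 and 13.2 CPM (log2 fold change 1.40 ± 0.28, adjusted p = 0.0321) and S100A3 by 0.79 ± 0.16 (adjusted p = 0.0354). The call of S100A3 was lost with control replicate 2 left out (0.0947) and with carnosine replicate 1 left out (0.0545). In the chitinase family of CHI3L1, OVGP1, an oviduct glycoprotein, rose from 13 and 13 counts to 96 and 75 (log2 fold change 2.93 ± 0.38, adjusted p = 0.0135), and the other 3 tested members of 6 did not pass. CHI3L2, the closest relative in name, had 16.2 ± 0.35 CPM in controls and 19.3 ± 0.15 CPM with carnosine (SD, n = 2 each; log2 fold change 0.25 ± 0.11, adjusted p = 0.197), and it was named after its values were seen.

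**Figure D4:**
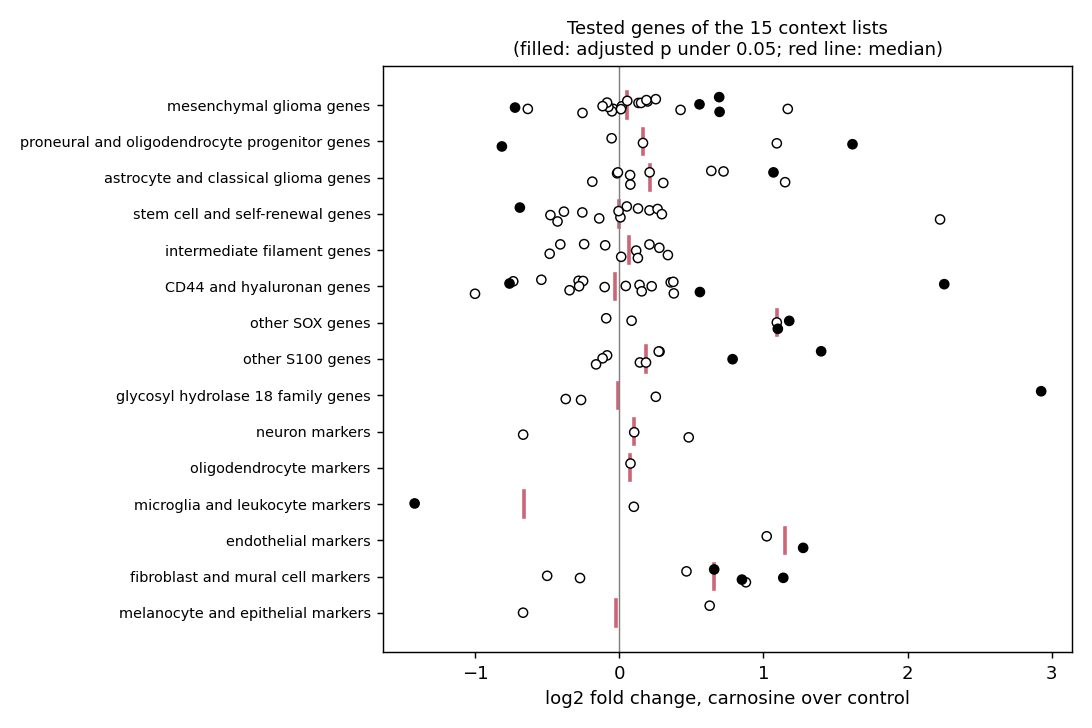
Fitted log2 fold change of every tested gene of the 15 lists, carnosine over control, with filled points for genes that passed and a red line at each list's median. Filled points lie on both sides of 0 in the mesenchymal, the proneural and the hyaluronan lists, and CEMIP at 2.25 and OVGP1 at 2.93 lie farthest to the right among them.

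Markers of other cell types were read beside these results, and their part in the results was not tested. Fibroblast and mural cell markers summed to 445 and 377 CPM in controls and 656 and 617 CPM with carnosine, with 7 of 9 tested, and COL1A2, PDGFRB and LUM higher. DCN and THY1 were not tested, with at most 1 and 7 counts in a library. Most of each sum was COL1A2, at 329 and 257 CPM in controls and 486 and 440 CPM with carnosine. Of the 7 tested, 5 had an unadjusted p under 0.05 by edgeR, COL1A1, COL1A2, PDGFRB, LUM and FAP, each of them higher. COL1A1 and FAP had log2 fold changes of 0.88 ± 0.22 and 0.47 ± 0.16 and did not pass (adjusted p = 0.0565 and 0.118). The mural markers ACTA2 and RGS5 had log2 fold changes of -0.50 ± 0.37 and -0.27 ± 0.36 and did not pass (adjusted p = 0.437 and 0.677). COL1A1, FAP, ACTA2 and RGS5 were named after their values were seen. COL1A2, a fibrillar collagen chain, rose by 0.66 ± 0.15 on the log2 scale (SE, adjusted p = 0.0425), a call that ended without control replicate 2 (0.243) or carnosine replicate 1 (0.0580), and PDGFRB, a receptor of mural cells, rose by 0.85 ± 0.13 (adjusted p = 0.0170). LUM, a matrix proteoglycan named after its values were seen, rose by 1.14 ± 0.21 (adjusted p = 0.0279).

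Microglia and leukocyte markers summed to 24.9 and 23.5 CPM in controls and 10.2 and 8.42 CPM with carnosine, nearly all of it CSF1R, a growth factor receptor, which fell by 1.42 ± 0.14 on the log2 scale (SE, adjusted p = 0.00932). CD14, the other tested gene of 8, had at most 24 counts, and AIF1 and P2RY12 had 0. Endothelial markers summed to 2.46 and 3.14 CPM in controls and 7.02 and 5.80 CPM with carnosine. PECAM1, an adhesion molecule, made up most of that sum and rose by 1.28 ± 0.21 (adjusted p = 0.0215), a call that ended without control replicate 1 (0.0583), while VWF had at most 42 counts and CDH5 and CLDN5 had 0.

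Neuron markers summed to 38.1 and 33.1 CPM in controls and 36.7 and 31.4 CPM with carnosine, and 0 of the 3 tested, of 9, passed the edgeR test, 2 with an unadjusted p under 0.05. These were SNAP25, a synaptic fusion protein (log2 fold change -0.67 ± 0.17, adjusted p = 0.0625, and 0.0162 with DESeq2), and GAD1, which makes GABA (0.48 ± 0.18, adjusted p = 0.146). RBFOX3, STMN2 and SLC17A6 had 0 counts. Of 7 oligodendrocyte markers CNP was the 1 tested, at 0.07 ± 0.10 (adjusted p = 0.695), the sums lay between 169 and 185 CPM, and MOG and MOBP had 0 counts. Melanocyte and epithelial markers summed to between 1.74 and 2.48 CPM, and the 2 tested of 8, PMEL at -0.67 ± 0.46 and EPCAM at 0.63 ± 0.28, did not pass (adjusted p = 0.402 and 0.204).

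The genes whose pattern over the 4 libraries was most like that of CHI3L1 were DNAJB2, a cochaperone, NPTN-IT1 and BCLAF1P2. Likeness was the Euclidean distance of log2 CPM centred on each gene's mean, among 11966 genes with a mean count of at least 100. The distances were 0.021, 0.0274 and 0.0275, where the median over those genes was 0.639. DNAJB2 had 38.0 and 39.5 CPM in controls and 57.4 and 55.2 CPM with carnosine and passed the edgeR test (log2 fold change 0.54 ± 0.09 SE, adjusted p = 0.0227). NPTN-IT1 (0.54 ± 0.20, adjusted p = 0.143) and the pseudogene BCLAF1P2 (0.56 ± 0.26, adjusted p = 0.216) did not pass. With 4 libraries in 2 groups, such likeness is a description and holds little more than the size of the group difference.

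**Figure D5:**
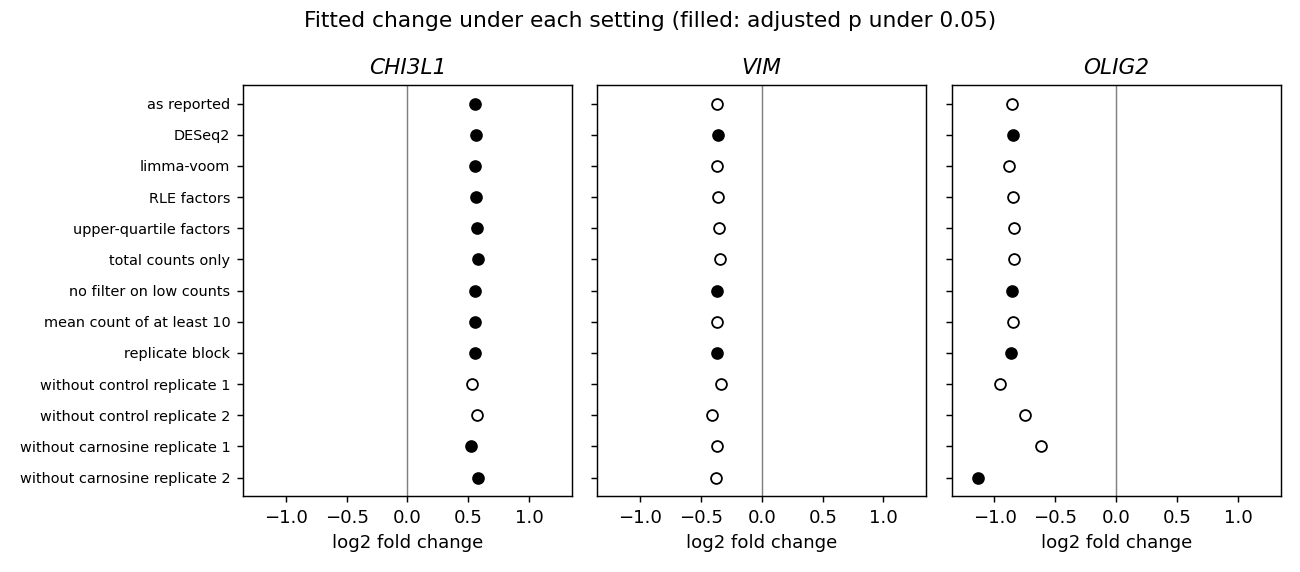
Fitted log2 fold change of CHI3L1, VIM and OLIG2 under each setting of the analysis, with filled points where the adjusted p was under 0.05. CHI3L1 lies between 0.52 and 0.58 throughout and loses its call when either control is left out, while VIM and OLIG2 lie below 0 throughout and pass only under some settings.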

How the data were processed

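Total RNA of 4 samples was sequenced after depletion of ribosomal RNA, as paired reads of 101 bases in one flow cell, per the labels' protocols. The authors deposited raw counts, unscaled whole numbers for each gene. The submitters' processing notes name HTSeq 0.6.1, HISAT2 2.1.0, bcl2fastq 2.17.0 and hg38. Annotation, strand setting and handling of multiply matching reads were not given in the sources used here, which bears on overlapping genes and pseudogenes.

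Genes were kept by filterByExpr (a minimum count of 10 in 2 libraries and a total of 15), and 16340 of 58219 were tested. Groups were compared in R 4.3.3 by edgeR 4.0.16 with TMM factors and its two-sided quasi-likelihood F test, without covariates. P-values were adjusted by Benjamini-Hochberg across every gene kept, and 0.05 was the threshold. CPM uses TMM-scaled library sizes. The SE is the absolute log2 fold change over the square root of F, and 95% intervals use it with residual plus prior degrees of freedom (2 and 4.92). Both are approximate. Exon lengths and coordinates come from GENCODE 29 (GRCh38), in which 57881 genes matched by identifier. Start windows come from RefSeq, in which 6 of 10 members matched.

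Members and lists were chosen with earlier results of these data known. Named were all members, up to 4 passing genes per list or the 2 with the most counts (for cell type markers always the latter), and the 3 genes most like a member that passed. A result that this rule would name in the stem cell list is not reported here. CDKN2A, CDKN2B, MTAP, the neighbours and antisense partners of members and genes named only for 0 counts were chosen after their values were seen. DESeq2 1.42.0, limma 3.58.1 (voom), other scalings and filters, the replicate block and leaving out each library were tried. Replicates were not copies: their counts gave a chi-square of 33.8 times its degrees of freedom for controls and 53.0 for carnosine.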

Additional observations from a re-analysis of the deposited data

How the results depend on the processing

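The direction of CHI3L1, VIM, NES, CD44, SOX9 and OLIG2 held under all 12 alternatives, and that of GFAP under all but the fit without control replicate 2 (-0.033). With DESeq2 2211 genes were called (1033 higher, 1178 lower), 2 of them members that were lower: VIM (log2 fold change -0.36) and OLIG2 (-0.85). With no filter on low counts 3145 genes were called (1514 higher, 1631 lower), with 2 members lower, VIM (-0.37) and OLIG2 (-0.86), and 39 distinct list genes against 21. Same-numbered replicates deviated together across genes (r = 0.31), but 2 pairs with no label of a shared batch do not set a pairing. With the replicate block 5767 genes were called (2771 higher, 2996 lower), with 56 list genes, 3 members higher (CHI3L1, CD44 at 0.25 and SOX9 at 0.34) and 3 lower (VIM at -0.37, NES at -0.34 and OLIG2 at -0.87). With a library left out, the calls over all genes ranged from 505 to 1595 (235 to 729 higher, 270 to 866 lower), list genes from 13 to 25, and members from 0 to 1 higher and 0 to 1 lower. Such fits have 1 residual degree of freedom. In them CHI3L1 ranged from 0.52 to 0.58, OLIG2 from -1.14 to -0.62, and GFAP from -0.03 to 1.66. Among genes outside the members PLEC was -0.18 without control replicate 2 and -0.20 without carnosine replicate 1, in a range up to 0.48, and CD14 was -0.13 without control replicate 1 and -0.08 without carnosine replicate 1, in a range up to 0.35. Of the intermediate filament list 3 genes were lower with the replicate block and 1 with no filter. Few counts limit what can be said of GFAP, whose interval is wide, and of SOX2, PROM1 and S100B, which were not tested.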

Other observations

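SOX9-AS1, a noncoding gene that spans SOX9 on the other strand, had 46 and 23 counts in controls and 74 and 69 with carnosine (0.647, 0.392, 1.23 and 1.37 CPM). Its log2 fold change was 1.31 ± 0.38 (SE), and it did not pass (adjusted p = 0.0803, edgeR's quasi-likelihood test). A gene within an intron of CD44 and on the same strand, ENSG00000251194, had 55 and 39 counts in controls and 106 and 82 with carnosine. These counts are not scaled to library size, and whether they came from CD44 RNA that keeps the intron was not tested. VIM2P, a pseudogene of VIM, had 4 counts in carnosine replicate 2 and 0 elsewhere, and CD44-AS1 had at most 3 counts in a library.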
